A study of Homo sapiens with 24 samples.

Results

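L-ascorbic acid (LAA, vitamin C) given alone was compared with its vehicle in libraries labelled THP-1. THP-1 is an established human monocytic acute myeloid leukemia line that carries the KMT2A-MLLT3 (MLL-AF9) fusion. Values given further below leave the line labels in doubt. The comparison was chosen by its treatment labels and takes in 6 of the 24 libraries of the study, 3 of THP-1 with LAA and 3 of THP-1 with vehicle. LAA was dissolved in PBS and used at 250 µM. The vehicle group received PBS with DMSO, and the labels do not say whether the LAA group also received DMSO. Treatment lasted 72 h in RPMI medium with 10% fetal bovine serum. The other THP-1 groups received olaparib, an inhibitor of PARP1 and PARP2 dissolved in DMSO, at 1 µM alone or with LAA. The remaining 12 libraries are labelled MOLM-13, a second acute myeloid leukemia line, with the same 4 treatments. Messenger RNA was selected by its polyA tail. Nothing in the labels says that replicates came from separate cultures, and the p-values therefore measure the spread between these libraries, and that spread may be technical only.

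Ascorbate keeps iron in its reduced state and thereby serves as a cofactor of dioxygenases that use iron and 2-oxoglutarate, among them the TET enzymes that oxidize methylated cytosine. Interferon-stimulated genes are a large set of antiviral genes that are switched on when interferon binds its receptor and activates STAT and IRF transcription factors. Many of their promoters hold an interferon-stimulated response element, which reads as a pair of GAAA blocks.

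Total counts in the 6 libraries ran from 19656188 to 24124468. The mitochondrial genome supplied 6.814 to 7.698% of counts, TMM scaling factors lay between 0.9801 and 1.009, and 15273 to 15829 genes per library had at least 10 counts. All 12 markers of a monocytic leukemia line were detected, with a summed level of 1443 to 1512 CPM (count levels scaled by library size and TMM) with vehicle and 1388 to 1558 CPM with LAA. Some of them were low, such as CD14 with 4.74 CPM and CD68 with 0.357 CPM in vehicle. Of 16 markers of T and NK cells 3 were at 0, CD8B, TRBC1 and TRBC2. The 5 tested genes of that list summed to 77.04 to 78.84 CPM with vehicle and 73.37 to 79.35 CPM with LAA. Most of that sum came from NCAM1 and NKG7, at 55.7 and 12.8 CPM of the library total in vehicle, and none of the list's 5 tested genes was called. The sum of the 4 tested B cell genes did not overlap between the groups, at 13.1 to 13.9 CPM with vehicle and 16.8 to 19.2 CPM with LAA. No gene of that list was called, among them CD79B and PAX5, and 5 of 11 listed genes were at 0, among them MS4A1, IGHM and JCHAIN. The part of these markers in the results was not tested.

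Of 16331 genes tested, 243 (1.49%) were called, meaning a Benjamini-Hochberg adjusted p under 0.05 in edgeR's quasi-likelihood test. Of these, 153 (0.937%) were higher with LAA and 90 (0.551%) were lower. The changes were small. The median fold was 1.46 among the genes called higher (interquartile range 1.29 to 1.76) and 1.32 among those called lower (1.24 to 1.46). Under 1.5-fold lay 85 of the 153 and 73 of the 90. At least 2-fold changes made up 24 of the higher genes (0.147% of all tested) and 5 of the lower (0.0306%). The median log2 fold change over all genes was -0.00405. The 3 LAA libraries did not overlap the 3 vehicle libraries for 151 of the 153 genes called higher and for all 90 called lower. Without overlap, whether called or not, stood 9.91% of all tested genes in the higher direction and 9.88% in the lower. Dropping vehicle library 1, 2 or 3 reduced the 243 calls to 152, 114 or 148, and dropping LAA library 3 reduced them to 129.

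**Figure D1:**
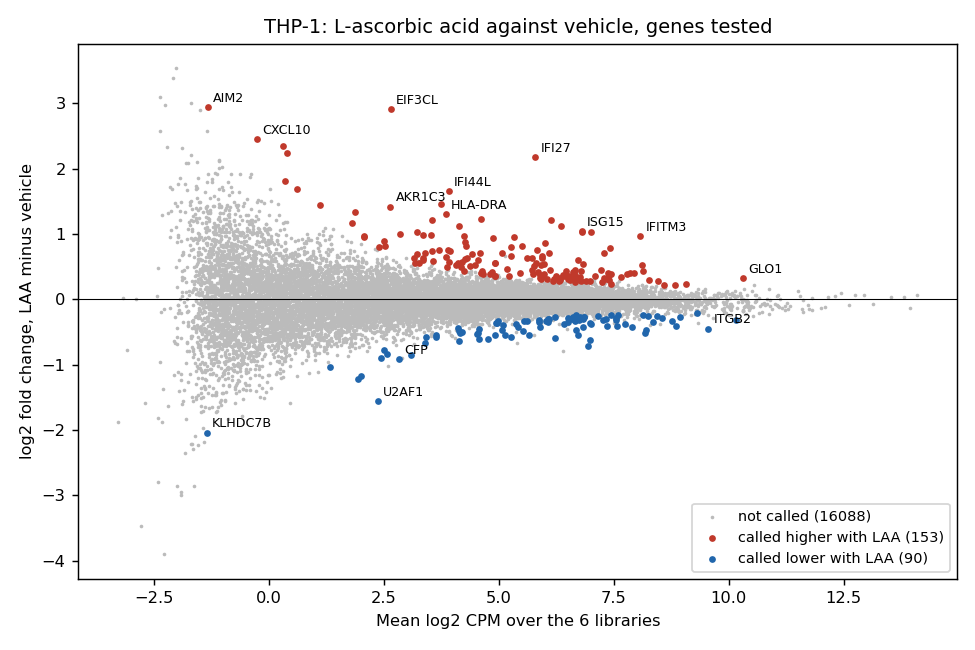
Each point is a gene tested in THP-1, with its mean log2 CPM over the 6 libraries on the x axis and its log2 fold change, LAA minus vehicle, on the y axis. Red points are the 153 genes called higher and blue points the 90 called lower, and most of them lie within 1.5-fold of no change.

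The genes called higher were led by the antiviral effectors, proteins that block entry, translation or replication of viruses. Of 48 tested members 32 rose (66.7%, beside 0.937% of all genes), 0 fell and 16 were not called. Their median log2 fold change was 0.54. This list, like the others here, was drawn up with earlier results of these data known. Taken with the genes of ISG15 conjugation, interferon signalling, nucleic acid sensing, interferon-inducible PARPs, guanylate-binding proteins and both MHC classes, 131 distinct genes were tested, of which 52 rose and 0 fell. These 8 lists held 35 of the 50 genes called higher with the smallest p. The other 101 genes called higher were on none of them. The lists do not hold every interferon-induced gene, and CXCL10, a chemokine induced by interferon, is among the 101.

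IFI27, a small interferon-induced protein of the mitochondrial and nuclear membrane, had the largest increase among called genes whose groups did not overlap and whose mean log2 CPM reached 1. It lies on chromosome 14 from 94104836 to 94116698 (hg38, plus strand) in the gene model of the deposited table, which begins upstream of the RefSeq start used below. Its level was 29.1, 24.6 and 24.8 CPM in the vehicle libraries and 108, 114 and 132 CPM in the LAA libraries. The log2 fold change was 2.17 ± 0.14 (SE, 4.51-fold, edgeR adjusted p = 6.07e-11), and the lowest LAA library was far above the highest vehicle library. IFI44L and IFI44, neighbours on chromosome 1, came next. IFI44L stood at 8.16, 8.85 and 8.36 CPM with vehicle and at 26.4, 22.5 and 30.6 CPM with LAA (log2 fold change of 1.65 with SE 0.10, edgeR adjusted p = 6.07e-11). IFI44 stood at 9.55, 6.34 and 8.52 CPM with vehicle and at 20.9, 19.4 and 27.4 CPM with LAA (log2 fold change 1.46 ± 0.14, adjusted p = 8.09e-08 in edgeR). Neither gene overlapped between the groups.

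The promoters of these genes are shown because they carry the paired GAAA motif. Each line gives the 250 bases before the RefSeq start (build GRCh38.p14, plus strand), and capitals mark matches on either strand to GAAA, any 2 bases, GAAA. The windows are chr14:94110486-94110735 for IFI27, chr1:78620198-78620447 for IFI44L and chr1:78649539-78649788 for IFI44. Matches begin 108 and 95 bases before the start in IFI27, 164 and 73 bases before it in IFI44L, and 18 bases before it in IFI44.
IFI27: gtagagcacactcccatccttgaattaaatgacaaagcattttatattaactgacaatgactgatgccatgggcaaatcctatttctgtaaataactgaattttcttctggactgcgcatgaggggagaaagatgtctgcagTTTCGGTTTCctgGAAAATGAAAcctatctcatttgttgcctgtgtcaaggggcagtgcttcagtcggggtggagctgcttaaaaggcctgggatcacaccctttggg
IFI44L: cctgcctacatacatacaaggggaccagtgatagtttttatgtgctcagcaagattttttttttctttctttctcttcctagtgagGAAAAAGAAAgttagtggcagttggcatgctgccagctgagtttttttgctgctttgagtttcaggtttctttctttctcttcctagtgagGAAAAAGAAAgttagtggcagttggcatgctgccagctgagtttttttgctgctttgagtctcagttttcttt
IFI44: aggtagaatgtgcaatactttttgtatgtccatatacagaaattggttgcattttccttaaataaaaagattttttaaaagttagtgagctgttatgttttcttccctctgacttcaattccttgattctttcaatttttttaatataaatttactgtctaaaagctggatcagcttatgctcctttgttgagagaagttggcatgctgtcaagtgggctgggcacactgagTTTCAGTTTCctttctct
The motif was searched on both strands in windows of 250 bases before to 50 bases after the start, taking the first RefSeq promoter listed for each gene. It was present in 31 of 120 genes called higher that had a promoter in the table (25.8%), in 1 of 66 called lower (1.52%) and in 340 of 11520 genes tested (2.95%). Among antiviral effectors called higher, 17 of 25 held it (68.0%). Among genes called higher outside the interferon-related lists it was found in 6 of 81 (7.41%). These 6 were LGALS3BP, LAP3, MNDA, LGALS9, CXCL10 and TRIM21. The lists do not hold every interferon-induced gene. CXCL10 and AIM2, both among the 31, passed the filter on low counts only through groups in which they were higher. Their matches are therefore no support for these shares. In the whole table the motif was found in 996 of 27305 promoters (3.65%). The median number of CpG dinucleotides per window was 16.5 in genes called higher, 23.0 in those called lower, 8.0 in the antiviral effectors called higher and 26 in all genes tested. A match describes these letters and not a bound site.

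Membrane and RNA-binding effectors followed. IFITM1, which blocks fusion of viral membranes, went from 50.2, 43.5 and 45.0 CPM to 96.4, 112 and 114 CPM (log2 fold change of 1.21 with SE 0.08, edgeR adjusted p = 9.54e-11). IFIT1, which binds foreign RNA lacking the host cap methylation, went from 19, 13.7 and 15.1 CPM to 31.1, 37.0 and 44.4 CPM (log2 fold change 1.23 ± 0.13, adjusted p = 3.96e-07 in edgeR). In both genes each LAA library was above each vehicle library. Of the synthetases of 2-5A, the messenger that activates RNase L, OAS1 rose 1.55-fold, OAS2 2.05-fold, OAS3 2.04-fold and OASL, a relative that does not make it, 1.98-fold. The dynamin-like GTPase genes MX1 and MX2 rose 2-fold and 1.58-fold. IFITM2 was not called (1.16-fold, edgeR adjusted p = 0.156). IFITM1, IFITM2 and IFITM3 are close copies whose reads the counting could split. Among the other 15 effectors not called, RSAD2 reached 1.36-fold (edgeR adjusted p = 0.0741), and SAMHD1 and ZC3HAV1 had log2 fold changes of -0.06 and -0.13. Leaving out any 1 of the 6 libraries left 27 to 31 of the 48 called.

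ISG15, a ubiquitin-like protein attached to other proteins in the antiviral state, rose from 81.2, 70.3 and 81.2 CPM to 153, 162 and 165 CPM (log2 fold change of 1.04 with SE 0.10, edgeR adjusted p = 5.05e-08). Its conjugating enzyme UBE2L6 rose 1.68-fold and its ligase HERC5 1.83-fold. USP18, which removes ISG15 and dampens the interferon receptor, rose 2.18-fold from 12 ± 1.54 to 26.1 ± 4.46 CPM (SD, n = 3). HERC6 rose 1.46-fold. The activating enzyme UBA7 was not called (1.15-fold, edgeR adjusted p = 0.2), nor was USP41, a near copy of USP18. That made 5 of 7 tested members higher and 0 lower, with a median log2 fold change of 0.75. LGALS3BP, a secreted glycoprotein that was on none of these lists, rose 2.17-fold from 55.2 ± 5.37 to 120 ± 3.67 CPM (SD, n = 3, edgeR adjusted p = 6.53e-10).

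**Figure D2:**
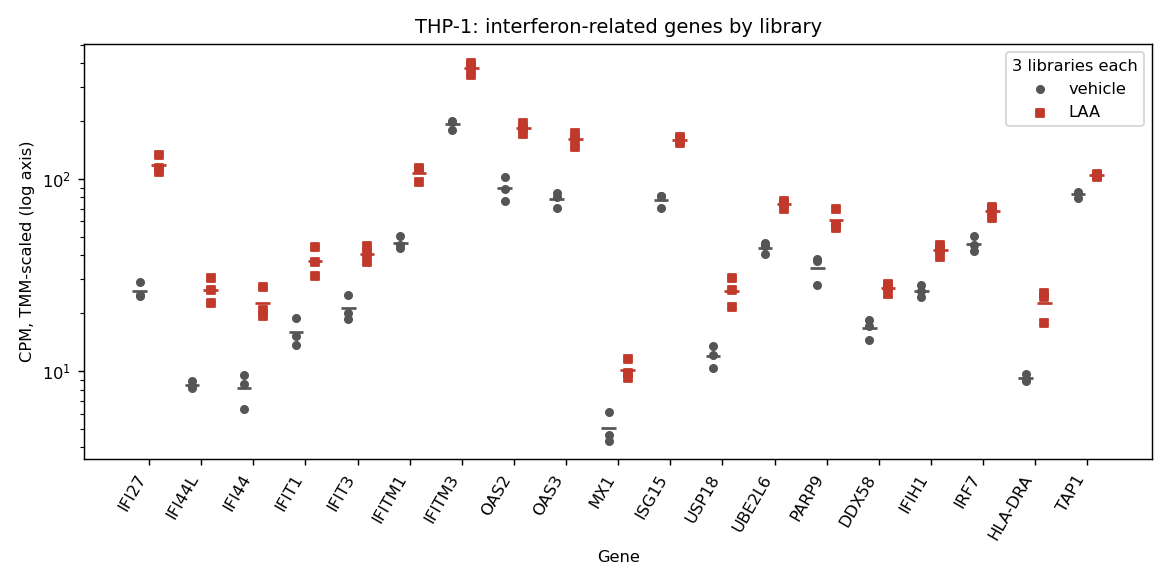
Levels in CPM (log axis) of 19 interferon-related genes in the 3 vehicle libraries (grey circles) and the 3 LAA libraries (red squares) of THP-1, with a bar at each group mean. For each gene shown every LAA library lies above every vehicle library, and the gap is widest for IFI27.

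The interferon genes themselves stood at or near 0 counts. None of 21 listed genes passed the filter on low counts, 18 had 0 counts in all 6 libraries, and the other 3 together had 4 counts with vehicle and 11 with LAA. A count of 0 over a group allows up to 3 counts, or 0.0471 CPM with vehicle and 0.0487 CPM with LAA, for counting error only. IFNB1 had 1 and 4 counts. Of 21 tested receptor and signalling genes 2 rose, 0 fell and 19 were not called, with a median log2 fold change of 0.01. IRF7, an inducible activator of interferon genes, was 1 of them and rose 1.47-fold. STAT2 (log2 fold change 0.17 ± 0.08), IRF9 (0.17 ± 0.33) and IFNAR1 (0.01 ± 0.07) were not called. IRF1 lay at 0.34 ± 0.10 and missed the threshold (edgeR adjusted p = 0.0729), although its groups did not overlap.

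Among nucleic acid sensors 5 of 13 tested members rose, 0 fell and 8 were not called, with a median log2 fold change of 0.31. The cytosolic RNA sensors IFIH1 (MDA5) and DDX58 (RIG-I) rose 1.64-fold and 1.62-fold, and their regulator DHX58 (LGP2) rose 1.99-fold. The DNA sensor IFI16 rose 1.63-fold. AIM2, a DNA sensor of the inflammasome, was nearly silent with vehicle and was singled out after its values were seen. It is 1 of the 5, at 6 counts over the vehicle libraries and 47 over the LAA libraries, and it passed the filter on low counts only through groups in which it was high, so its call is no support for the list. It stood at 0.126, 0.0512 and 0.103 CPM with vehicle and at 0.684, 1.08 and 0.563 CPM with LAA. CGAS, which senses cytosolic DNA, and its adaptor TMEM173 (STING) were not called, at log2 fold changes of 0.14 ± 0.07 and -0.14 ± 0.06. Of 7 interferon-inducible PARP genes and partners 5 rose, with a median log2 fold change of 0.35. PARP9 rose 1.76-fold, its partner DTX3L 1.27-fold and PARP14 1.46-fold. That count was 3, 3 and 2 without vehicle replicate 2, vehicle replicate 3 and LAA replicate 3.

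Antigen presentation was called for few genes. HLA-DRA, the alpha chain of the MHC class II molecule HLA-DR, rose from 8.96, 8.85 and 9.6 CPM to 17.8, 25.3 and 24.3 CPM (log2 fold change of 1.30 with SE 0.12, edgeR adjusted p = 1.21e-07). HLA-DPA1 was low and rose 2.25-fold, a call lost without vehicle replicate 1 or 3 or LAA replicate 1 or 3 (edgeR adjusted p up to 0.12). HLA-DRB1 had a log2 fold change of 0.00 ± 0.07, and CIITA, the master regulator of class II genes, of 0.60 ± 0.21 (edgeR adjusted p = 0.202). Of 5 tested guanylate-binding proteins, interferon-induced GTPases, 0 were called, with a median log2 fold change of 0.34. Class II gave 2 of 11 called higher and class I 1 of 20. The class I gene called was TAP1, the peptide transporter, at 1.26-fold. Without overlap, whether called or not, 6 of the 11 and 7 of the 20 were higher. In the lower direction 0 were, beside 9.91% higher and 9.88% lower of all genes. HLA-B was not called (log2 fold change -0.07 ± 0.07). Many HLA genes are polymorphic near copies, so reads may be split among them.

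**Figure D3:**
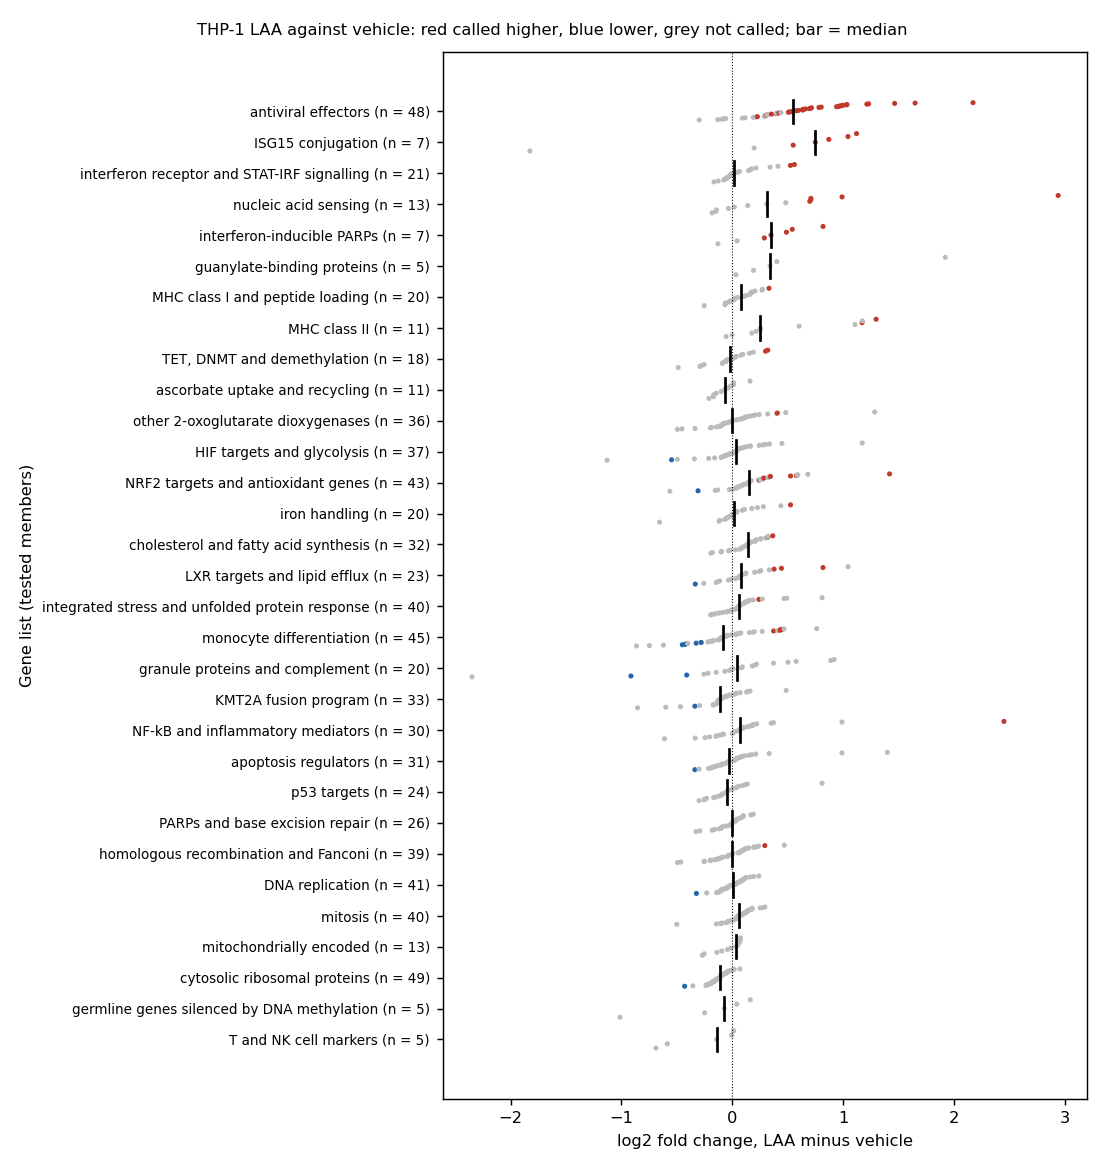
Each row is a gene list with at least 5 tested members (the line markers left out), each point the log2 fold change (LAA minus vehicle, x axis) of 1 member and each bar the list median. Red points are called higher, blue lower and grey not called, and most red points lie in the antiviral, ISG15, sensing and PARP lists.

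The messenger RNA of the writers and erasers of DNA methylation gave few calls. Of 18 tested genes 2 rose and 0 fell, with a median log2 fold change of -0.02. TET1, TET2 and TET3, the methylcytosine dioxygenases, had log2 fold changes of -0.06 ± 0.19, -0.28 ± 0.12 and -0.08 ± 0.08. TET2 stood at 24.4, 25.7 and 25.5 CPM with vehicle and at 22.2, 17.7 and 22.5 CPM with LAA, without overlap but not called (edgeR adjusted p = 0.346). TDG, which excises oxidized bases, DNMT1, DNMT3A, DNMT3B and UHRF1 lay between -0.06 and 0.15 and were not called. The genes called were IDH1 and OGDH, which make and consume 2-oxoglutarate. IDH1 went from 140, 131 and 147 CPM to 178, 167 and 177 CPM (1.25-fold, edgeR adjusted p = 0.00466), a call lost without vehicle replicate 2 (edgeR adjusted p = 0.0788). OGDH rose 1.23-fold, a call lost when any vehicle library or LAA replicate 2 was left out. Of 36 other 2-oxoglutarate dioxygenases only FTO, an RNA demethylase, was called (1.33-fold higher, lost without vehicle replicate 1 or 2 or LAA replicate 1 or 2). Of 11 tested genes of ascorbate uptake and recycling 0 were called, including the ascorbate transporter SLC23A2 (log2 fold change -0.17 ± 0.13) and the dehydroascorbate carrier SLC2A1 (-0.02 ± 0.06). SLC23A1 had 6 counts with vehicle and 7 with LAA.

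Of 43 NRF2 targets and antioxidant genes 6 rose and 1 fell, with a median log2 fold change of 0.15. Without overlap, whether called or not, 20 were higher and 2 lower, beside 9.91% and 9.88% of all genes. AKR1C3, an aldo-keto reductase of steroids and prostaglandins, went from 3.32, 3.63 and 4.34 CPM to 8.74, 10.5 and 10.8 CPM (log2 fold change 1.42 ± 0.21, adjusted p = 0.00017 in edgeR). AKR1C1 and AKR1C2 rose 1.49-fold and 1.27-fold, and the 3 are near copies whose reads could be split. HMOX1, which degrades heme, GCLM of glutathione synthesis and PGD of the pentose phosphate pathway rose 1.44-fold, 1.22-fold and 1.18-fold. The HMOX1 call was lost when any library except vehicle replicate 3 was left out. NQO1 was not called (1.12-fold, edgeR adjusted p = 0.308). GPX1, a selenium peroxidase, was 1.24-fold lower, lost without vehicle replicate 2 or 3 or LAA replicate 1 or 3. The count of 6 became 2, 3, 3 and 2 without vehicle replicate 2, vehicle replicate 3, LAA replicate 1 and LAA replicate 3.

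Lipid genes gave a few calls. APOE, the lipid carrier, went from 15.2, 14.8 and 13.9 CPM to 25.6, 26.8 and 25.2 CPM (log2 fold change of 0.82 with SE 0.11, edgeR adjusted p = 1.53e-05). The phospholipid transfer gene PLTP and the lipid droplet gene PLIN2 rose 1.36-fold and 1.3-fold, and the fatty acid receptor CD36 was 1.26-fold lower, lost when any 1 library was left out. Of 23 tested genes of that list 3 rose and 1 fell. In cholesterol and fatty acid synthesis 2 of 32 rose, ACAT2 and MSMO1 (1.29-fold and 1.25-fold), and leaving out 1 library gave between 0 (vehicle replicate 2, LAA replicate 3) and 4 (LAA replicate 2). DESeq2 called 7 of them higher. The LAA libraries were above the vehicle libraries without overlap for 20 of the 32, beside 9.91% of all genes, and the median log2 fold change was 0.14. Among genes on no list, CA3, a carbonic anhydrase, rose 2.72-fold from 1.26 ± 0.02 to 3.44 ± 0.671 CPM (SD, n = 3), lost when any library except LAA replicate 3 was left out. SPOCK2, a matrix proteoglycan, rose 2.51-fold (edgeR adjusted p = 0.00304). GLO1, the glyoxalase that detoxifies methylglyoxal, was singled out after its values were seen, as the gene called higher with the highest CPM in vehicle. It stood at 1181, 1082 and 1154 CPM with vehicle and at 1449, 1356 and 1471 CPM with LAA (edgeR adjusted p = 0.000807).

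Of the genes called lower, 13 of 90 were on a list, and of those called higher, 73 of 153. The lists were drawn up with earlier results known, and 8 of them are interferon-related. Monocyte differentiation genes were called in both directions, with 4 of 45 higher, 5 lower and a median log2 fold change of -0.09. Log2 fold changes were above 0 for 16 of the 45. Without overlap, 14 were lower and 6 higher, beside 9.88% and 9.91% of all genes. ITGB2, the shared beta chain of the leukocyte integrins, fell from 842, 898 and 884 CPM to 610, 687 and 624 CPM (log2 fold change -0.45 ± 0.06, adjusted p = 7.72e-06 in edgeR). Its partners ITGAM and ITGAL fell 1.34-fold and 1.21-fold. AIF1, an actin-binding protein of macrophages, fell 1.34-fold and FCER1G, an Fc receptor signalling chain, 1.25-fold. In the other direction LYZ, lysozyme, rose 1.3-fold, MNDA 1.35-fold, and the alarmin subunits S100A8 and S100A9 1.36-fold and 1.35-fold, with S100A8 lost without vehicle replicate 1 or 2 or LAA replicate 1. The count of 5 lower was 3 without vehicle replicate 1, vehicle replicate 3 or LAA replicate 1, and 9 with DESeq2, without the filter on low counts or with only the 6 libraries compared. CD14 lay at a log2 fold change of -0.75 ± 0.21 and was not called (edgeR adjusted p = 0.0697). In bulk RNA, fewer cells of a type and less RNA per cell cannot be told apart.

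Of 20 tested granule and complement genes 2 fell, 0 rose and 18 were not called, with a median log2 fold change of 0.05. CFP (properdin) went from 10.2, 9.77 and 8.98 CPM to 4.54, 5.68 and 5.16 CPM (log2 fold change of -0.91 with SE 0.16, edgeR adjusted p = 0.00095), and CFD (factor D) fell 1.33-fold. NFE2, a myeloid and erythroid transcription factor, went from 12.7, 10.1 and 11.5 CPM to 5.03, 7.63 and 6.29 CPM (log2 fold change -0.86 ± 0.18, adjusted p = 0.00801 in edgeR), lost without vehicle replicate 1 or LAA replicate 1 or 3. DDIT4, a stress-induced inhibitor of mTORC1, fell 1.46-fold and was the sole call among 37 HIF target and glycolysis genes. BCL2, the survival factor, was 1.26-fold lower and the sole call among 31 apoptosis regulators and among 33 genes of the KMT2A fusion program, lost without vehicle replicate 1 or 2 or LAA replicate 2 or 3. Of the 36 genes listed for that program, HOXA4, MEIS1 and GFI1B did not pass the filter on low counts. Without overlap, 9 of its 33 tested genes were lower and 1 higher, beside 9.88% and 9.91% of all genes, with a median log2 fold change of -0.11. EPAS1 (HIF-2 alpha) and TIMP3, a metalloproteinase inhibitor, were singled out after their values were seen, and fell 1.51-fold and 1.43-fold (edgeR adjusted p = 2.91e-05 and 7.72e-06).

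The largest decrease under the same conditions rests on uneven libraries. U2AF1, a splicing factor with a duplicate copy in hg38, stood at 4.16, 14.3 and 9.29 CPM with vehicle and at 3.57, 3.07 and 2.72 CPM with LAA (log2 fold change of -1.55 with SE 0.36, edgeR adjusted p = 0.0213). The call was lost with DESeq2 and when any library except vehicle replicate 1 was left out. TSSK6, NTN1 and KLLN fell 2.04-fold, 1.86-fold and 1.72-fold at mean levels under 8 CPM, and leaving out single libraries ended each call (edgeR adjusted p up to 0.188, 0.212 and 0.146). TSSK6 also lost its call under both other scalings. C6orf48, ADGRG5, FRAT1 and TRAPPC6A fell 1.63-fold, 1.58-fold, 1.56-fold and 1.52-fold, and each of these calls was lost without at least 1 single library. The long noncoding RNA MALAT1 fell from 173, 150 and 144 CPM to 104, 102 and 98.4 CPM (edgeR adjusted p = 0.00132). FCGR2C and HSPA7 fell 2.25-fold and 2.33-fold, and both are near copies of other genes. HSPA7 missed the threshold when vehicle replicate 2 or 3 or LAA replicate 1 or 3 was left out (edgeR adjusted p up to 0.174), and FCGR2C when vehicle replicate 1 was (edgeR adjusted p = 0.0533). EIF3CL, a near copy of EIF3C, was called higher from 1 library: it stood at 4.29, 3.89 and 2.94 CPM with vehicle and at 76.7, 4.1 and 3.43 CPM with LAA, and was singled out for that after its values were seen.

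**Figure D4:**
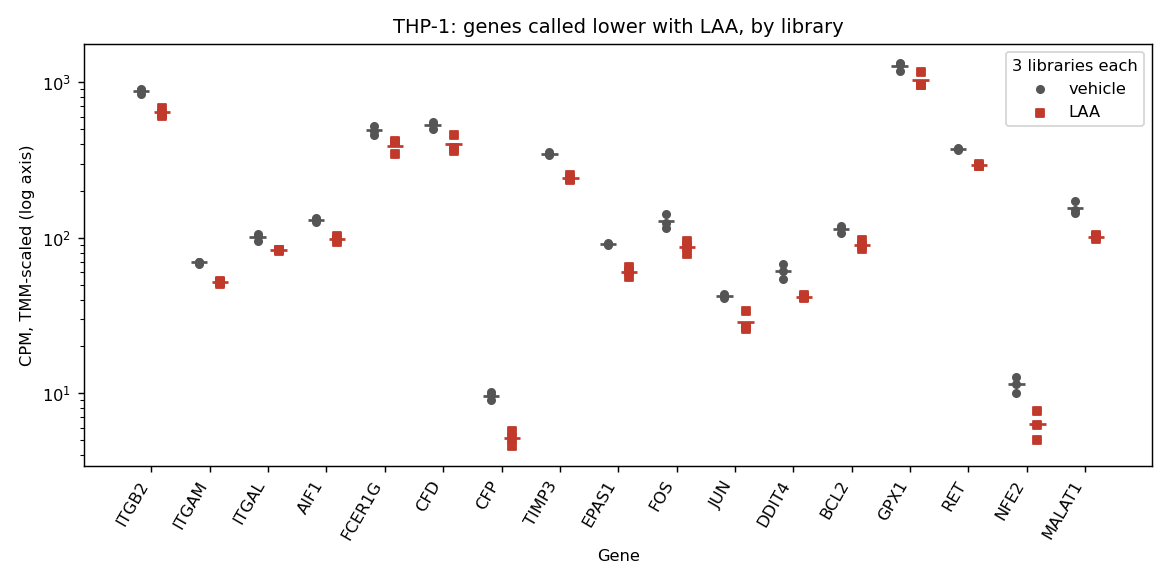
Levels in CPM (log axis) of 17 genes called lower in the 3 vehicle libraries (grey circles) and the 3 LAA libraries (red squares) of THP-1, with a bar at each group mean. Several were chosen after their values were seen, and for each gene every LAA library lies below every vehicle library.

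Lists of growth, damage and inflammation gave few or no calls. Of 24 p53 targets, 26 PARP and base excision repair genes, 40 mitosis genes and 13 mitochondrially encoded genes 0 were called, and the homologous recombination and ribosomal protein lists gave 1 each (NBN higher and RPL22 lower), each lost without at least 2 of the single libraries. Of the 40 mitosis genes 10 were higher and 2 lower without overlap, beside 9.91% and 9.88% of all genes. Their median log2 fold change was 0.06. Of 49 ribosomal protein genes 20 were lower without overlap, beside 9.88% of all genes, with a median log2 fold change of -0.11. Without the filter on low counts, or with only the 6 libraries compared, 8 of them were called lower, and with DESeq2 0. PARP1, PARP2, CDKN1A and MYC had log2 fold changes of 0.03 ± 0.05, 0.06 ± 0.10, 0.12 ± 0.06 and -0.17 ± 0.06. Of 40 genes of the integrated stress and unfolded protein response 1 was called, the amino acid transporter SLC7A5 (1.18-fold higher, lost when any vehicle library or LAA replicate 2 or 3 was left out), and of 5 tested germline genes silenced by DNA methylation 0. CXCL10, a chemokine induced by interferon, was the sole call among 30 NF-kB and inflammatory genes. It stood at 0.42, 0.307 and 0.258 CPM with vehicle and at 0.733, 3.33 and 1.5 CPM with LAA (edgeR adjusted p = 0.0106), a call lost without vehicle replicate 2 or 3 or LAA replicate 2. CXCL10, like AIM2, passed the filter on low counts only through groups in which it was higher. Its call is therefore no support for the list. A missed threshold does not show that these genes were equal.

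The same dose of LAA was also given on top of olaparib, in libraries that share none with the comparison above, and the genes were followed there. LAA with olaparib against olaparib alone called 24.2% of genes, 12.3% higher and 11.9% lower. Of the 153 genes called higher with LAA alone, 106 (69.3%, and 5.3% of the 2001 called higher there) were also higher, 16 were lower and 31 were not called. Of the 90 called lower, 64 (71.1%, and 3.28% of 1951) were also lower, 5 were higher and 21 were not called. The median log2 fold change of the 153 was 0.54 without and 0.61 with olaparib, and that of the 90 was -0.40 in both settings. Individual genes differed more than these medians. IFI44L went from 10.9 ± 0.414 CPM with olaparib to 138 ± 4.48 CPM with both compounds (SD, n = 3), a log2 fold change of 3.66 ± 0.10 against 1.65 ± 0.10 without olaparib. MX1 rose by 3.47 ± 0.17 against 1.00 ± 0.18 on the log2 scale, and ISG15 by 2.64 ± 0.10 against 1.04 ± 0.10. HLA-DRA and APOE were not called in the interaction test, with log2 fold changes of 0.96 ± 0.12 and 0.39 ± 0.11 on olaparib (edgeR adjusted p of the interaction 0.282 and 0.0835).

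The interaction, the LAA effect with olaparib minus that without, was called for 7.57% of all genes, 4.04% higher and 3.54% lower. It subtracts the contrast that chose the 243 genes, so its counts among them are a description: 62 higher and 28 lower of the 153, and 12 higher and 13 lower of the 90. Of the 48 antiviral effectors it was called higher for 37 and lower for 0. In the cholesterol and fatty acid synthesis list it was called lower for 27 of 32 and higher for 0. MSMO1, a sterol oxidase, rose 1.25-fold with LAA alone and had a log2 fold change of -0.97 ± 0.08 on olaparib. S100A8 and S100A9 turned in the same way, each with a log2 fold change of -1.61 on olaparib. KLHDC7B, named after its values were seen, stood at 0.42, 1.13 and 0.361 CPM with vehicle and at 0.195, 0.205 and 0.0469 CPM with LAA. It averaged 2.11 CPM with olaparib and 40.2 CPM with both compounds, and it passed the filter on low counts only through these olaparib groups.

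**Figure D5:**
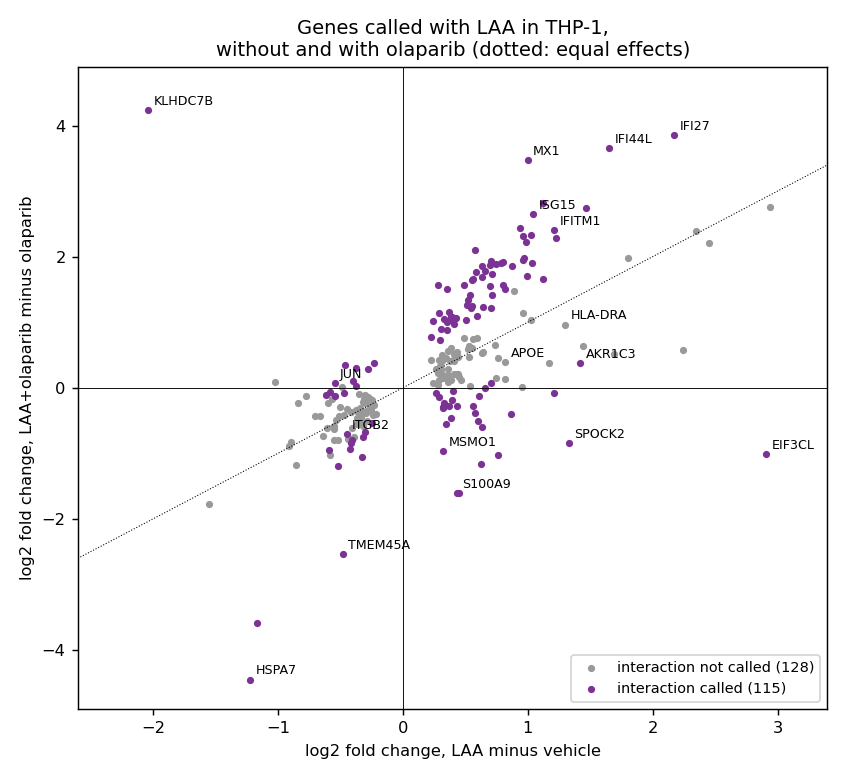
Log2 fold change of the 243 called genes with LAA alone (x axis, LAA minus vehicle) against that with LAA on olaparib (y axis, LAA with olaparib minus olaparib), with a dotted line at equal effects. Purple points are the 115 genes called in the interaction, with antiviral genes such as IFI44L and MX1 above the line and S100A9, MSMO1 and SPOCK2 below 0 on the y axis.

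The libraries labelled MOLM-13 are read here with their closeness to THP-1 in view, in CPM of the library total without TMM. Of 13962 genes at 1 CPM or more in either vehicle group, 55 (0.394%) differed at least 4-fold between the lines, and Pearson's r of log2(CPM + 1) across genes, which are not replicates, between single libraries of the lines was 0.9869 to 0.9909, beside 0.9942 to 0.9949 among the THP-1 vehicle libraries. The 4 genes with at least 1 CPM in every MOLM-13 vehicle library and at most 0.1 CPM in every THP-1 vehicle library summed to 11.9 to 13.9 CPM there, but to 1.62 to 2.1 CPM in the libraries labelled MOLM-13 with LAA. They summed to 5.52 to 8.18 CPM in those labelled MOLM-13 with olaparib and to 0.755 to 2.12 CPM in those with both compounds. In the libraries labelled THP-1 with LAA they summed to at most 0.15 CPM. The reverse condition, at least 1 CPM in every THP-1 vehicle library and at most 0.1 CPM in every MOLM-13 vehicle library, was met by 0 genes. These values leave the line labels in doubt, and THP-1 and MOLM-13 stand for the labels throughout. What the differences come from was not tested.

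The difference in the LAA effect between libraries labelled THP-1 and MOLM-13 was called for 24 of 17089 genes (0.14%), 22 (0.129%) with a higher and 2 (0.0117%) with a lower value in THP-1. Among the 153 genes called higher in THP-1, 5 were called in that difference, all with a greater effect in THP-1, and among the 90 called lower 1 was. Few called differences do not show equal effects. Of 150 of the higher genes tested in MOLM-13, 133 had the same sign and 33 were called higher (median log2 fold change 0.27). Of the 90 lower genes, 81 had the same sign and 26 were called lower (median -0.26). These genes were chosen by their THP-1 values. TRIM22, an antiviral E3 ligase, rose 1.55-fold in THP-1 and had a log2 fold change of -1.03 in MOLM-13, a difference of 1.67 ± 0.20 (edgeR adjusted p = 1.53e-05). LYZ had log2 fold changes of 0.37 and -0.50. IFI44L rose in THP-1 and had a log2 fold change of 0.00 at about 1.75 CPM in MOLM-13. IFI27, IFITM1 and LGALS3BP had log2 fold changes of 1.40, 0.72 and 0.79 in MOLM-13. All were called higher there, and their line differences were not called. ISG15 and USP18, at 0.51 and 0.24, were not called in MOLM-13. Of the 48 antiviral effectors the line difference was called higher for 3 and lower for 0. HLA-DRA, APOE, S100A9 and AKR1C3 had log2 fold changes of 1.15, 0.94, 0.95 and 1.49 in MOLM-13, and for none of them was the difference called.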

How the data were processed

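PolyA-selected RNA of THP-1 and MOLM-13 was measured in 24 libraries. Per the labels' protocols, the library kit keeps no strand information, so antisense and overlapping genes cannot be told apart. HISAT2, SAMtools and DESeq2 were run by the authors on hg38, per the submitters' processing notes, which carry no versions. How reads were counted, with which strand option and which gene annotation is not given in the sources used here. In the deposited table stand raw whole-number counts of 58735 genes in each library. The deposited FPKM table was not used. Gene symbols, identifiers and coordinates are those of the deposited table.

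The 12 THP-1 libraries were fitted together with edgeR 4.0.16 in R 4.3.3 (filterByExpr defaults, TMM, quasi-likelihood F test, Benjamini-Hochberg over all genes tested, threshold 0.05). Line differences were fitted on all 24 libraries. Each SE was derived as the absolute log2 fold change divided by the square root of the quasi-likelihood F statistic. CPM values are TMM-scaled, and counting depth limits genes near 1 CPM or below. The fitting code was tested on simulated data. Alternatives were DESeq2 1.42.0, other scalings, no filter, the 6 libraries alone, a replicate block and leaving out each library. Genes were named by a rule: the 12 strongest rises and 10 strongest falls of called protein-coding genes without overlap whose mean log2 CPM reached 1, up to 4 of other biotypes per direction, up to 3 called members per list with the smallest p, a fixed panel, and up to 4 per direction in the interaction and line difference. The 36 lists and the members were chosen with earlier results of these data known. Promoters came from RefSeq (GRCh38.p14), matched by gene symbol. Some results are not reported here.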

Additional observations from a re-analysis of the deposited data

Results flagged for a closer look

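Among genes called with LAA alone in THP-1, 8 were named because the LAA effect with olaparib differed from that without it in edgeR's interaction test. The difference on the log2 scale was higher for IFI44L (2.01 ± 0.14, edgeR adjusted p = 2.07e-10), the tryptophan tRNA ligase WARS (1.29 ± 0.09, edgeR adjusted p = 2.13e-10), OAS3 (1.30 ± 0.10, edgeR adjusted p = 8e-10) and ISG15 (1.60 ± 0.13, edgeR adjusted p = 2.97e-09). It was lower for S100A9 (-2.04 ± 0.11, edgeR adjusted p = 9.53e-13), S100A8 (-2.05 ± 0.13, edgeR adjusted p = 3.05e-11), the transmembrane protein gene TMEM45A (-2.06 ± 0.15, edgeR adjusted p = 2.07e-10) and MSMO1 (-1.29 ± 0.11, edgeR adjusted p = 5.88e-09). TMEM45A was lower with LAA in both settings, 1.4-fold without olaparib and by a log2 fold change of -2.54 with it. With LAA alone, the WARS call (1.22-fold higher) was lost without vehicle replicate 2 or 3 or LAA replicate 2 or 3 (edgeR adjusted p up to 0.186). The TMEM45A call was lost without vehicle replicate 3, and the MSMO1 call without any library except LAA replicate 2.

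A further 5 were named because the LAA effect differed between libraries labelled THP-1 and MOLM-13. The difference, THP-1 minus MOLM-13 on the log2 scale, was higher for TRIM22 (1.67 ± 0.20, edgeR adjusted p = 1.53e-05), LYZ (0.87 ± 0.11, edgeR adjusted p = 2.29e-05), DDX58 (0.95 ± 0.17, edgeR adjusted p = 0.00689) and IFI44L (1.64 ± 0.34, edgeR adjusted p = 0.0312), and lower for JUN (-0.68 ± 0.14, edgeR adjusted p = 0.0302).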

How the results depend on the processing

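Beside the 243 genes called with LAA, RLE scaling called 239, of which 235 were among the 243. Total-count scaling called 241 (171 higher, 70 lower), of which 222 were among the 243. Calls numbered 383 without the filter on low counts (176 lower), 387 with DESeq2 (243 higher, 144 lower) and 380 when only the 6 libraries compared were fitted (179 lower), of which 242 were among the 243. Leaving out 1 library gave 114 to 209 calls (83 to 135 higher, 30 to 74 lower), the fewest without vehicle replicate 2. Antiviral effectors called higher numbered 27 to 31 without 1 library. LAA on olaparib gave 3079 to 3747 calls. The interaction gave 797 (without LAA replicate 3) to 1478 calls. The line difference gave 102 calls without the filter, 45 with DESeq2 and 13 (without MOLM-13 vehicle replicate 2) to 22 without 1 library, 14 of them without THP-1 LAA replicate 3. Same-numbered libraries did not deviate together (r between -0.00424 and 0.0144), and with replicate number as a block 205 genes were called (132 higher, 73 lower, 203 of them among the 243), with HMOX1, NBN, SLC7A5 and TSSK6 among the genes no longer called. No named gene called with LAA changed direction. For named genes that were not called, direction was not compared. CD14 passed the threshold without the filter, with DESeq2 and without LAA replicate 2 (adjusted p = 0.0298, 0.0287 and 0.0114, edgeR for the first and last), and IRF1 with DESeq2 (adjusted p = 0.0251). Calls of 32 named genes were lost under at least 1 alternative. The causes were not tested.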

Other observations

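Further gene families were grouped after the values were seen, so their counts are a description. Beside them, 0.937% of all genes tested were called higher and 0.551% lower. Of 7 tested metallothioneins, small proteins that bind zinc and copper, 3 were called higher with LAA and 0 lower: MT1G (1.69-fold, edgeR adjusted p = 0.00305), MT2A (1.44-fold) and MT1E (1.28-fold), while MT1X had a log2 fold change of 0.03 ± 0.18. Metallothioneins are near copies whose reads could be split. Of 18 heat shock chaperones and co-chaperones 4 were called higher and 0 lower: HSPA1A (1.45-fold, edgeR adjusted p = 0.0106), DNAJA4 (1.33-fold), BAG3 (1.24-fold) and DNAJA1 (1.17-fold). Of 16 AP-1 and immediate early genes 2 were called lower and 0 higher. FOS went from 125, 116 and 143 CPM to 78.8, 94.9 and 88.1 CPM (edgeR adjusted p = 0.0027), and JUN from 41.2, 43.1 and 42.3 CPM to 26, 33.9 and 26.7 CPM (edgeR adjusted p = 0.000676). Of 21 tested integrins 4 were called lower and 0 higher, namely ITGB2, ITGAM, ITGAL and ITGB5.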
